A study of Mus musculus with 24 samples.

Results

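The contrast described here asks whether inhaled vinyl chloride (VC) was followed by different liver RNA levels on 2 diets, long after exposure had stopped. It was the VC minus air difference on a Western diet, (m12_WD+VC minus m12_WD), minus the same difference on a control diet, (m12_CD+VC minus m12_CD). The members are the 12 libraries of the 12-month groups, out of 24 in the series, with 3 libraries in each of the 4 groups, taken by their group labels. All came from liver of male C57Bl/6J mice labelled with a feeding time of 12 months. The m12_CD mice had a low-fat control diet with 13% fat and breathed air, and the m12_WD mice had a Western-style diet with 42% fat and breathed air. The m12_CD+VC and m12_WD+VC mice had the matching diet and about 0.85 ± 0.1 ppm VC, for 6 hours on 5 days per week over 12 weeks. A further 9 months of housing, with or without the Western diet, followed before the livers were taken after a fast. No library was taken during or directly after exposure, so the contrast concerns a late state. Whether the 3 libraries of a group are 3 mice is not stated, and p-values measure only the spread between these samples, which may be technical.

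VC is an industrial gas that the liver oxidises, mainly through the cytochrome P450 Cyp2e1, to a reactive epoxide that rearranges to chloroacetaldehyde. Aldehyde dehydrogenases and glutathione transferases clear these products. In a fat-loaded liver the nuclear receptor PPAR-alpha drives peroxisomal and mitochondrial fatty acid oxidation, while insulin and SREBP1 drive fatty acid synthesis. Hepatocytes make most plasma proteins, and resident macrophages, the Kupffer cells, take up lipid and debris.

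Levels are given per library as CPM, counts scaled to a common total, of the library size scaled by TMM, a scaling that aligns libraries on their typical gene. A log2 interaction below 0 means that the VC minus air difference was lower on the Western diet than on the control diet. The tests are edgeR's quasi-likelihood test with Benjamini-Hochberg adjustment over 3847 tested entries, with 3 libraries per group, and "passed" means an adjusted p below 0.05. The libraries held 126160 to 962493 counts, so 3 counts, the upper limit that a count of 0 allows, came to 3.01 to 22.6 CPM. These limits cover counting error only. All 6 hepatocyte markers were counted in every group, and the blood, pancreas and adipose markers were at 0 in all 4 groups. At least 1 gene that hepatocytes express strongly was also at 0 in all 12 libraries, so a 0 in these counts does not show absence. In bulk tissue, fewer cells of a type and less RNA per cell cannot be told apart.

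One property of the libraries moved with the contrast. Entries whose exons do not overlap a gene on the other strand took 15.5% ± 3.58 (SD, n = 3) of counts in m12_CD against 26.5% ± 4.64 in m12_CD+VC, and 25.8% ± 3.91 in m12_WD against 20.6% ± 2.42 in m12_WD+VC. The VC minus air difference in this share was 11.02 percentage points on the control diet and -5.21 on the Western diet. The first m12_CD library stood lowest at 11.4% and had the lowest TMM factor, 0.713. In the paired entries Ahsg and Gm30505, which overlap on opposite strands, Ahsg took 0.531% ± 0.294 (SD, n = 3) of the pair's counts in m12_CD against 1.95% ± 0.818 in m12_CD+VC, and 2.66% ± 0.844 in m12_WD against 1.44% ± 0.539 in m12_WD+VC. The named kit does not mark strand and how strand was handled in counting is not stated in the labels. An entry may therefore hold reads of its opposite-strand partner. The split was far from even. Ahsg took from 0.197% of the pair's counts in the first m12_CD library to 3.58% in the second m12_WD library. Why Gm30505 held most of the counts was not tested. Functions given below are those of the named gene. A gene name in the text is the name of a row of counts, here called an entry. Diet, VC and this share cannot be told apart with these 12 libraries: in a fit with the share as a covariate, chosen after seeing the data, 0 entries passed edgeR's test and 185 had an unadjusted p below 0.05.

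**Figure D1:**
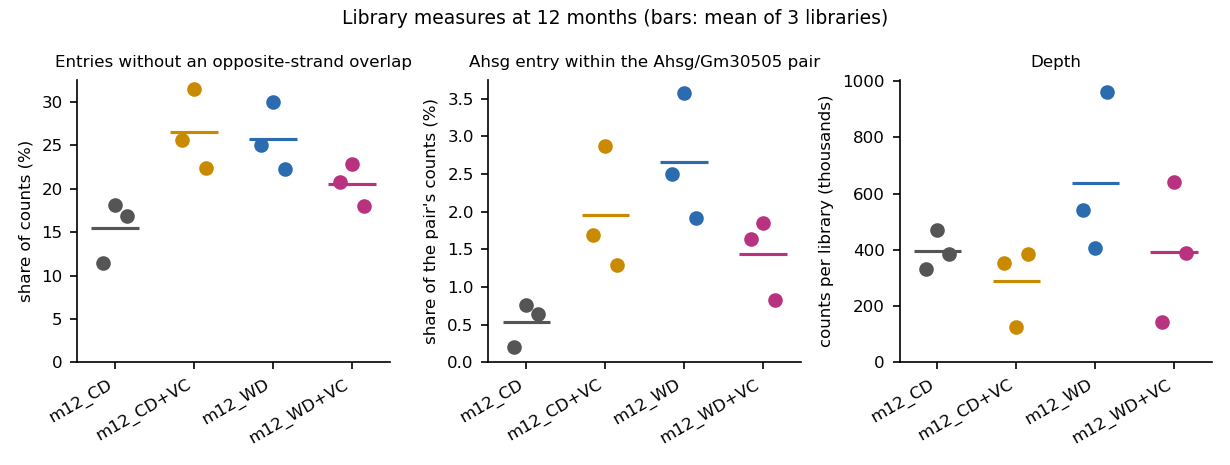
Share of counts on entries without an opposite-strand overlap (%), share of the Ahsg entry in the counts of the Ahsg and Gm30505 pair (%), and total counts per library, by group. Points are the 3 libraries of a group and bars their mean. For the no-overlap share m12_CD has the lowest mean, 15.5%, and m12_CD+VC the highest, 26.5%.

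In the 12-month libraries, VC and the Western diet did not add up for 337 entries, 8.76% of the 3847 tested. The interaction was lower than 0 for 217 of them (5.64%) and higher for 120 (3.12%), and 1157 entries had an unadjusted p below 0.05. By sign the prevailing shape was a crossing, which choosing entries by the interaction of the same 4 groups favours. Of the 217 lower entries, 216 were higher with VC on the control diet and lower with VC on the Western diet. Over all 3847 tested entries, 1375 had these signs. Medians of the 217 were 1.63 and -0.82 on the log2 scale, and 97 passed for VC on the control diet but 0 on the Western diet. Their level was lowest in m12_CD for 193, beside 1384 of all tested entries. It was highest in m12_CD+VC for 101 and in m12_WD for 116, beside 956 and 1079 of all tested entries. Of the 120 higher entries, 118 showed the opposite crossing, beside 1157 of all tested entries. Their medians were -0.84 on the control diet, where 24 passed, and 0.74 on the Western diet, where 10 did. For 107 of them m12_CD had the highest level, beside 1242 of all tested entries.

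For the lower entries the difference on the control diet was the larger of the 2 in 206 of 217 entries. In the higher entries it was the larger in 70 of 120. Over all tested entries, 162 (4.21%) passed for VC on the control diet and 10 (0.26%) for VC on the Western diet. Those 10 were all among the 120 higher entries. The Western diet in air passed for 931 (24.2%) and the Western diet with VC for 64 (1.66%). These 4 differences share groups with the interaction and are given as its parts.

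**Figure D2:**
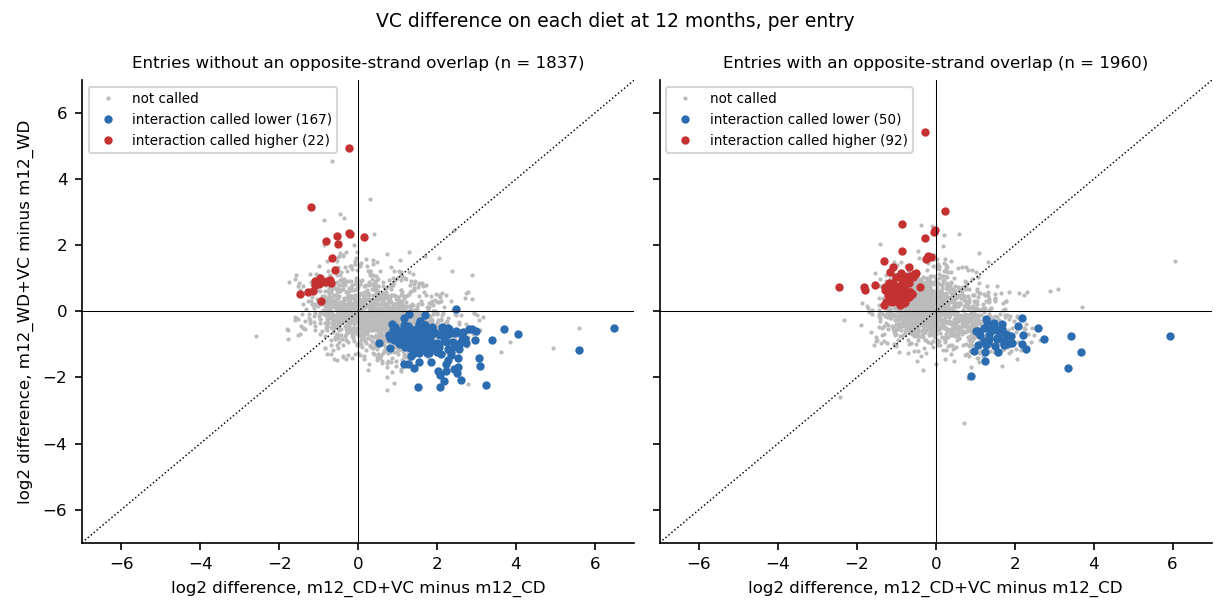
Each point is an entry, with the log2 VC minus air difference on the control diet on the x axis and on the Western diet on the y axis, for entries without (left) and with (right) an opposite-strand overlap. The dotted line marks equal differences. Of the coloured points, the 167 and 50 called lower lie to the lower right, and the 22 and 92 called higher to the upper left.

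The count of 337 moved when single libraries were left out. It was 40 without the third m12_WD+VC library, 54 without the second m12_CD+VC, 82 without the second m12_WD, 112 without the first m12_CD, 144 without the first m12_WD, 159 and 210 without the first or the second m12_WD+VC, and 575 without the third m12_WD library. Without both of the shallowest libraries (the second of m12_CD+VC and the first of m12_WD+VC, chosen after seeing the data) 0 entries passed edgeR's test, with 810 at an unadjusted p below 0.05. With RLE scaling, the size factors of DESeq2, 345 passed, 232 of them lower (6.03%). Of 75 passing entries named here by the rule, 23 passed in all 12 fits that leave out 1 library, and those 23 are described first in each group below. With the 2 shallowest libraries out, their adjusted p lay between 0.0509 and 0.0781.

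Lower calls were spread unevenly over entries, which bears on every list below. They made up 9.09% of entries without an overlap and 2.55% of those with one. Among the most abundant tested entries, with a mean over the 4 groups of at least 126 CPM, they made up 26.4% of the 246 without an overlap and 2.46% of the 690 with one. Most members of the lists below are entries without an overlap.

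Fatty acid oxidation and the PPAR-alpha targets were the group with the most negative median among lists with 10 or more tested members. Of 20 tested members of 24 listed, 12 passed, all lower, against 5.64% of all entries, and the median interaction was -2.14, beside -0.78 for all entries without an overlap. Of its 14 members without an overlap, 7 passed, beside 9.09% of such entries, and 2 of the 3 most abundant of these, beside 26.4%. Over the 20 tested members the median difference with VC was 1.42 on the control diet and -0.86 on the Western diet. For all entries without an overlap these medians were 0.6 and -0.23. Ehhadh, the peroxisomal bifunctional enzyme (chr16:21761287-21787807, GRCm38), had 0, 12.4 and 26.2 CPM in m12_CD against 104.5, 60.2 and 71.7 in m12_CD+VC, and 159, 146 and 76.2 in m12_WD against 36.2, 67.6 and 28.9 in m12_WD+VC. Every m12_CD+VC library lay above every m12_CD library, and every m12_WD+VC library below every m12_WD library. The log2 interaction of Ehhadh was -3.96 ± 0.76 (SE), edgeR adjusted p = 0.00875. Its VC difference passed on the control diet (edgeR adjusted p = 0.033) but not on the Western diet (0.337).

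Acaa1b, a peroxisomal thiolase (chr9:119148023-119157093), had 73.5, 156.5 and 134 CPM in m12_CD against 261, 323.5 and 309 in m12_CD+VC, and 335, 533 and 361 in m12_WD against 130.3, 260.1 and 194 in m12_WD+VC. As for Ehhadh, libraries with and without VC did not overlap on either diet, higher with VC on the control diet and lower on the Western diet. Only the first of these differences passed (edgeR adjusted p = 0.0384), not the second (0.281). The log2 interaction was -2.28 ± 0.45 (SE), edgeR adjusted p = 0.00903. Acaa1b overlaps Dlec1, whose log2 interaction of -0.46 ± 0.71 (SE) did not pass (edgeR adjusted p = 0.691).

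Hadha, a subunit of the mitochondrial trifunctional protein, passed too (log2 interaction -2.25, edgeR adjusted p = 0.0234). Others that did were Acadm, Cpt1a, Cyp4a10, Ppara, Acaa1a, Fabp1 and Bdh1, named after their values were seen. Ppara itself, the receptor, had mean levels of 4.41, 38.4, 46.3 and 23.8 CPM in m12_CD, m12_CD+VC, m12_WD and m12_WD+VC, the first on 5 counts. Its log2 interaction was -3.54 ± 1.03 (SE), edgeR adjusted p = 0.0397. The mitochondrial carnitine palmitoyltransferase Cpt1a had mean levels of 56.3, 171.5, 146 and 101 CPM in the same order and a log2 interaction of -2.02 ± 0.55 (SE), edgeR adjusted p = 0.0315. Scaled within the classes of entries with and without an overlap, 6 of the 20 members passed (2.99% of all entries) and the median was -2.02, and neither Ppara nor Cpt1a passed. With the no-overlap share as a covariate, 0 passed.

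Enzymes of VC oxidation and of the clearance of its products formed the next group, and 6 of 19 tested members passed, all lower. Of its 15 members without an overlap 5 passed, and of the 7 most abundant of these 4, beside 9.09% and 26.4% of such entries. The median interaction was -1.99 and 18 of 19 values lay below 0. All 6 passed for VC on the control diet, where they were higher, and none passed for VC on the Western diet. Over all tested entries 4.21% and 0.26% passed for these differences. Adh1, the class I alcohol dehydrogenase (chr3:138260991-138290698), had 38.9, 152 and 174 CPM in m12_CD against 440.1, 504 and 378 in m12_CD+VC, and 468, 475 and 458 in m12_WD against 275, 353 and 213 in m12_WD+VC. The 4 groups fell into 3 levels, with m12_CD lowest, m12_WD+VC above it, and m12_CD+VC and m12_WD overlapping on top. Its log2 interaction was -2.54 ± 0.49 (SE), edgeR adjusted p = 0.00875.

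Aldh1a1, a cytosolic aldehyde dehydrogenase (chr19:20492715-20643465), had 8.65, 59.6 and 39.3 CPM in m12_CD against 201, 391 and 168 in m12_CD+VC, and 178, 268 and 101 in m12_WD against 108.5, 135 and 105 in m12_WD+VC. All m12_CD+VC libraries exceeded all m12_CD libraries, whereas the 2 Western diet groups overlapped. That gave a log2 interaction of -3.29 ± 0.64 (SE), edgeR adjusted p = 0.00903, with a VC difference of 2.67 on the control diet and -0.61 on the Western diet. Gstp1, the pi class glutathione transferase (chr19:4035407-4037985), had 0, 14.9 and 9.83 CPM in m12_CD against 82.5, 67.7 and 68.95 in m12_CD+VC, and 50.6, 38.25 and 27.1 in m12_WD against 7.24, 22.05 and 26.3 in m12_WD+VC. Its m12_CD+VC libraries stood above all others, and m12_WD+VC overlapped m12_CD. Its log2 interaction was -3.83 ± 0.82 (SE), edgeR adjusted p = 0.0141, on 9, 64, 71 and 26 counts per group in the order m12_CD, m12_CD+VC, m12_WD and m12_WD+VC. The gene lies next to near-identical copies, so reads may be split between them.

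The other 3 members that passed were Mgst1, a microsomal glutathione transferase (log2 interaction -2.79, edgeR adjusted p = 0.0144), and, named after their values were seen, Ephx2 (-2.63) and Gsta3 (-2.65). Cyp2e1 itself, the enzyme that oxidises VC (chr7:140763739-140774987), had 225, 798 and 819 CPM in m12_CD against 473, 3167 and 1749 in m12_CD+VC, and 2243, 1847 and 1092 in m12_WD against 1382, 1157 and 867 in m12_WD+VC. The first m12_CD+VC library lay within the m12_CD range, and the Western diet groups overlapped as well. Its log2 interaction of -2.13 ± 0.68 (SE) did not pass (edgeR adjusted p = 0.0519). Scaled within classes, 6 of the 19 members passed and the median was -1.41. The aldehyde dehydrogenase Aldh2, named after its values were seen, passed there (-1.67, edgeR adjusted p = 0.0496). With TMM over all entries it did not (-1.17, edgeR adjusted p = 0.0879). With the share as a covariate, 0 passed.

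Among the xenobiotic P450s, enzymes under the receptors CAR, PXR and AhR, 5 of 15 tested members passed, all lower, with a median of -2.08. All 5 were among the 12 without an overlap, beside 9.09% of such entries. Cyp3a11, the main PXR target of mouse liver (chr5:145854426-145879964), had 8.65, 57.15 and 36.0 CPM in m12_CD against 231, 165.5 and 74.5 in m12_CD+VC, and 339, 387 and 285 in m12_WD against 94.1, 213 and 89.3 in m12_WD+VC. The 3 m12_WD libraries were the highest of all, and every m12_CD library was below every other library. The contrast gave a log2 interaction of -3.38 ± 0.66 (SE), edgeR adjusted p = 0.00875. Cyp2c50 was shaped differently, with 4.33, 14.9 and 26.2 CPM in m12_CD against 22.0, 211 and 68.95 in m12_CD+VC, and 61.8, 54.0 and 27.1 in m12_WD against 14.5, 13.2 and 10.5 in m12_WD+VC. Here m12_WD+VC was as low as m12_CD, and the second m12_CD+VC library was far above the other 2. Its log2 interaction of -4.39 ± 0.99 (SE) passed (edgeR adjusted p = 0.0171) but not without the second m12_CD+VC or the third m12_WD+VC library (0.0616 to 0.0675). Cyp2a5 (0.02, edgeR adjusted p = 0.986) and the receptors Nr1i2 (PXR, -0.29) and Nr1i3 (CAR, 0.14) did not pass. P450s of the Cyp2c, Cyp2d and Cyp3a families are close paralogs, and how reads were divided among them is uncertain. Scaled within classes, 3 of 15 members passed.

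Plasma proteins made by hepatocytes had the largest share of passing members among lists with 5 or more tested. Of 27 members, all tested, 22 passed, all lower, and the median was -1.72. Of the 20 most abundant members without an overlap, 17 passed, beside 26.4% of such entries. Over the whole list the median difference with VC was 1.22 on the control diet, where 14 members passed, and -0.6 on the Western diet, where none did. For all 1837 entries without an overlap these medians were 0.6 and -0.23, and 87 passed as higher with VC on the control diet. Alb, the most abundant plasma protein (chr5:90460897-90476602), had 1345, 4930 and 5343 CPM in m12_CD against 11670, 18480 and 8961 in m12_CD+VC, and 7369, 6398 and 2407 in m12_WD against 2468, 3105 and 1920 in m12_WD+VC. All m12_CD+VC libraries were above all others, and the remaining 3 groups overlapped. The group means were 3873 ± 2199, 13030 ± 4903, 5392 ± 2630 and 2498 ± 593 CPM (SD, n = 3) in m12_CD, m12_CD+VC, m12_WD and m12_WD+VC, and the log2 interaction was -2.86 ± 0.59 (SE), edgeR adjusted p = 0.012.

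Trf, the iron carrier transferrin (chr9:103204001-103230444), had 744, 1985 and 2116 CPM in m12_CD against 4489, 4822 and 3070 in m12_CD+VC, and 6011, 6182 and 3352 in m12_WD against 2916, 3282 and 1928 in m12_WD+VC. For this entry m12_CD+VC and m12_WD overlapped at the top, and m12_WD+VC overlapped both m12_CD and m12_CD+VC. The contrast came to -2.28 ± 0.47 (SE) on the log2 scale, edgeR adjusted p = 0.0116. Apoa2, an apolipoprotein of high-density lipoprotein (chr1:171225054-171226379), had 381, 912 and 704 CPM in m12_CD against 1285, 2452 and 1230 in m12_CD+VC, and 2009, 2058 and 1705 in m12_WD against 984, 1198 and 801 in m12_WD+VC. Every m12_CD+VC library was above every m12_CD library and every m12_WD+VC library below every m12_WD library, with -2.25 ± 0.43 (SE) and edgeR adjusted p = 0.00875. The VC difference of Apoa2 passed on the control diet (edgeR adjusted p = 0.033) but not on the Western diet (0.306).

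Serpina1a, an alpha-1 antitrypsin (chr12:103853589-103863562), is not on this list but behaved likewise, with 38.9, 62.1 and 78.6 CPM in m12_CD against 162, 293 and 99.3 in m12_CD+VC, and 277, 281 and 115 in m12_WD against 72.4, 95.5 and 57.8 in m12_WD+VC. All m12_CD+VC libraries exceeded all m12_CD libraries, and the m12_WD+VC libraries lay below those of m12_WD. The contrast came to -3.07 ± 0.60 (SE) on the log2 scale, edgeR adjusted p = 0.00903. Its VC difference passed neither on the control diet (edgeR adjusted p = 0.0509) nor on the Western diet (0.158). The Serpina1 genes are near-identical copies, and their counts may be split. Apoe (-0.56), Itih4 (-0.64) and Apoc3 (-0.98) were among the 5 members of the plasma protein list that did not pass. Scaled within classes, 13 of the 27 passed with a median of -1.35. With the share as a covariate the median was -0.18 and 0 passed, and the log2 interaction of Alb was -0.24.

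**Figure D3:**
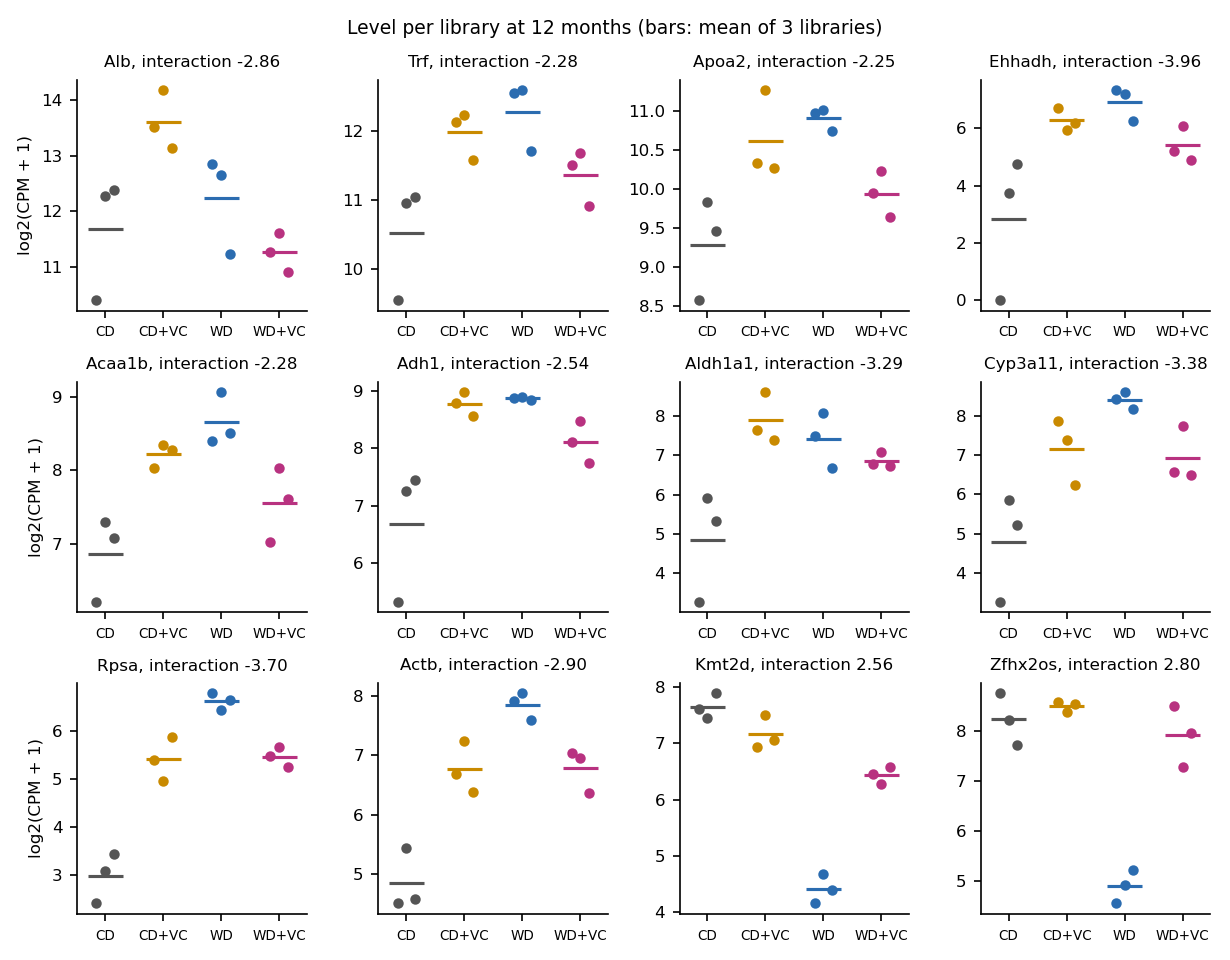
Level of 12 genes, as log2(CPM + 1), in each library of the 4 groups at 12 months. Points are libraries, bars are the mean of 3 log2 values, axes do not start at 0, and titles give the log2 interaction. From Alb to Actb m12_CD+VC is above m12_CD, and in Kmt2d and Zfhx2os m12_WD is far below the other groups.

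Acute-phase proteins, which hepatocytes secrete in inflammation, were divided. Of 16 tested members 4 passed, all lower, namely Hp, Cp, C3 and Itih3, and the median was -1.62. Of the 15 without an overlap 3 passed, all 3 among the 7 most abundant, where 26.4% of such entries passed. Scaled within classes, Cp alone passed (edgeR adjusted p = 0.0201), with 0.0816 for Hp, 0.12 for C3 and 0.209 for Itih3. The call of Itih3 was lost in 9 of the 12 fits that leave out 1 library, that of C3 in 5 and that of Cp in 4. Hp, the haemoglobin-binding haptoglobin, had 666, 1034 and 691 CPM in m12_CD against 902, 2197 and 1746 in m12_CD+VC, and 3251, 3543 and 2700 in m12_WD against 2077, 2041 and 1329 in m12_WD+VC. The m12_WD libraries were highest and apart from m12_WD+VC, while the 2 control diet groups overlapped. Its log2 interaction of -1.81 ± 0.41 (SE) passed (edgeR adjusted p = 0.0184), but not without the second m12_CD+VC library or the third m12_WD+VC library (0.0514 to 0.0787). The strongly inducible Saa1 (0.09, edgeR adjusted p = 0.962) and Orm2 (0.30, 0.88) did not pass. Of the 9 tested NRF2 targets and iron storage genes, the 3 that passed were the ferritin chains Ftl1 (-2.12, edgeR adjusted p = 0.0206) and Fth1 (-1.85, edgeR adjusted p = 0.0275) and the peroxiredoxin Prdx1 (-3.00, edgeR adjusted p = 0.0377). Of the 7 without an overlap 2 passed, beside 9.09% of such entries. Scaled within classes, 1 of the 9 passed. The regulator Nfe2l2, NRF2 itself, did not pass (-2.25, edgeR adjusted p = 0.1). These calls were lost without 1 or more single libraries, among them in each case the second m12_CD+VC, the second m12_WD and the third m12_WD+VC libraries for Ftl1, Fth1 and Prdx1.

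Of 29 tested cytosolic ribosomal proteins, 9 passed, all lower, and the median was -1.62. All 9 were among the 23 without an overlap, beside 9.09% of such entries. Scaled within classes, 2 of the 29 passed, and 3 of the 23 when entries without an overlap were fitted alone. For VC on the control diet 3 of the 29 passed, beside 4.21% of all entries, and none for VC on the Western diet. All 29 had their lowest mean in m12_CD and 28 their highest in m12_WD. Of the 1837 entries without an overlap, 943 had their lowest mean in m12_CD and 606 their highest in m12_WD. The summed level of the list was 1612 ± 534 CPM (SD, n = 3) in m12_CD against 2882 ± 446 in m12_CD+VC, and 4758 ± 550 in m12_WD against 3167 ± 501 in m12_WD+VC. Rpsa, of the small subunit (chr9:120127689-120132369), had 4.33, 7.45 and 9.83 CPM in m12_CD against 41.3, 30.1 and 57.9 in m12_CD+VC, and 109, 85.5 and 98.2 in m12_WD against 43.4, 50.0 and 36.8 in m12_WD+VC. The 3 levels were m12_CD below, m12_CD+VC and m12_WD+VC overlapping in the middle, and m12_WD on top. The log2 interaction was -3.70 ± 0.65 (SE), edgeR adjusted p = 0.00827, on 7 counts in m12_CD. With the share as a covariate it was -4.07 and did not pass.

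Actb, cytoplasmic actin and a common reference gene (chr5:142903115-142906754), had 21.6, 42.2 and 22.9 CPM in m12_CD against 102, 150.5 and 82.7 in m12_CD+VC, and 242, 263 and 193.5 in m12_WD against 130.3, 123.5 and 81.4 in m12_WD+VC. Its order of groups was that of Rpsa, with -2.90 ± 0.51 (SE) and edgeR adjusted p = 0.00827. Psap, the precursor of the lysosomal saposins (chr10:60277627-60302597), had 8.65, 24.85 and 22.9 CPM in m12_CD against 115.5, 150.5 and 102 in m12_CD+VC, and 206, 214 and 200.5 in m12_WD against 152, 176 and 68.3 in m12_WD+VC. Libraries with and without VC did not overlap on either diet, higher with VC on the control diet and lower on the Western diet. The first of these differences passed (edgeR adjusted p = 0.0156), the second did not (0.53). The log2 interaction of Psap was -3.23 ± 0.56 (SE), edgeR adjusted p = 0.00827.

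Of 22 tested nuclear genes of the respiratory chain and ATP synthase, 3 passed, all lower, beside 5.64% of all entries. Of the 14 without an overlap 2 passed, beside 9.09% of such entries. The list median was -1.63, and 3 passed when scaled within classes. The 3 were ATP synthase subunits, but another such subunit, Atp5c1 (-2.03, edgeR adjusted p = 0.0675), did not pass. Atp5b, the catalytic beta subunit (chr10:128083273-128090391), had 47.6, 102 and 68.8 CPM in m12_CD against 239, 391 and 215 in m12_CD+VC, and 204, 270 and 210.5 in m12_WD against 116, 166 and 147 in m12_WD+VC. No group overlapped m12_CD, and m12_WD+VC was also below m12_CD+VC and m12_WD. The log2 interaction was -2.52 ± 0.47 (SE), edgeR adjusted p = 0.00827. Atp5h (-3.40, edgeR adjusted p = 0.00952) passed in all 12 fits that leave out 1 library, and Atp5a1 (-2.47, edgeR adjusted p = 0.0144) in all but the one without the third m12_WD+VC library (0.0676). Subunits of complexes I to IV such as Sdha (-3.00, edgeR adjusted p = 0.077), Ndufa4 (-2.36, edgeR adjusted p = 0.119) and Cox4i1 (-1.42, edgeR adjusted p = 0.131) did not pass. The value of Sdha lay further below 0 than that of Atp5b, so passing did not follow the size of the interaction.

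A pair of enzymes outside the lists also passed in all 12 fits. Akr1c6, an aldo-keto reductase that acts on steroids (chr13:4434306-4457877), had 25.95, 24.85 and 16.4 CPM in m12_CD against 93.5, 286 and 127 in m12_CD+VC, and 78.7, 128 and 81.2 in m12_WD against 65.1, 64.7 and 68.3 in m12_WD+VC. No group overlapped another except m12_WD and m12_CD+VC. Its log2 interaction was -3.35 ± 0.61 (SE), edgeR adjusted p = 0.00827. Entpd5, a nucleotide phosphatase of the endoplasmic reticulum (chr12:84373857-84409029), had 4.33, 14.9 and 13.1 CPM in m12_CD against 57.8, 60.2 and 52.4 in m12_CD+VC, and 45.0, 78.7 and 45.1 in m12_WD against 14.5, 23.5 and 18.4 in m12_WD+VC. The m12_CD+VC and m12_WD libraries lay together above the other 2 groups, with -3.74 ± 0.71 (SE) and edgeR adjusted p = 0.00875.

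The summed level of 8 macrophage and Kupffer cell markers was 64.9 to 141 CPM in m12_CD against 190.3 to 272 in m12_CD+VC, and 505 to 686 in m12_WD against 275 to 476 in m12_WD+VC, so no library of one control diet group overlapped the other, and the Western diet groups did not overlap either. None of the 8 was at 0 in any group, and the part of these cells in the results above was not tested. Of 9 tested members of the longer macrophage list, 3 passed, all lower, namely Lyz2, Mpeg1 and Cd5l, with a median of -1.85. All 9 had no overlap, and 9.09% of such entries passed as lower. Scaled within classes, none of the 3 passed (edgeR adjusted p = 0.0581, 0.118 and 0.131), and the calls of Mpeg1 and Cd5l were lost in 10 and 9 of the 12 fits that leave out 1 library. Limma-voom called none of the 9, DESeq2 4. Lyz2, a lysozyme, had 4.33, 2.48 and 3.28 CPM in m12_CD against 33.0, 45.1 and 16.55 in m12_CD+VC, and 125.5, 232 and 31.1 in m12_WD against 21.7, 83.8 and 21.0 in m12_WD+VC. Its level rested on 3 counts in all of m12_CD, m12_WD was scattered, and the interaction of -4.49 ± 1.17 (SE) (edgeR adjusted p = 0.0275) was lost without any of 5 libraries (0.0518 to 0.0859). C1qc (0.19) and Cd68 (0.86), other macrophage genes, did not pass.

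Genes of lipid-laden macrophages gave 3 passing members of 7 tested, Lpl, Ctsd and Spp1, all lower, and 1 when scaled within classes. All 3 were among the 6 without an overlap, beside 9.09% of such entries. Lpl, lipoprotein lipase, was at 0 in all 3 m12_CD libraries, and stood at 24.8, 0 and 11.03 CPM in m12_CD+VC, with 86.2, 90.0 and 35.1 in m12_WD against 36.2, 41.15 and 15.8 in m12_WD+VC. With no count in m12_CD, only a limit of 7.45 to 13 CPM per library can be given there, and the fitted interaction is not a bound. The test passed (edgeR adjusted p = 0.0248) except without the first m12_CD+VC, the second m12_WD or the third m12_WD+VC library (0.0519 to 0.0755). Spp1, osteopontin, had 0, 2.48 and 6.55 CPM in m12_CD against 24.8, 15.05 and 8.27 in m12_CD+VC, and 61.8, 182 and 129 in m12_WD against 43.4, 60.3 and 86.7 in m12_WD+VC. Both Western diet groups were above both control diet groups, and -3.16 ± 0.98 (SE) passed narrowly (edgeR adjusted p = 0.0478), but not in 8 of the 12 fits that leave out 1 library (0.0786 to 0.168). B2m, the light chain of MHC class I, was the single one of 8 tested antigen presentation genes to pass (-2.19, edgeR adjusted p = 0.0171), and without the third m12_WD+VC library it did not (0.0679). Neutrophil markers had 0 counts in both control diet groups, 42 in m12_WD and 17 in m12_WD+VC.

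Fatty acid and triglyceride synthesis showed a different arrangement. All 16 tested members had interactions below 0, with a median of -1.56, but none passed in edgeR, DESeq2 or limma-voom, and 7 had an unadjusted p below 0.05. In 14 of the 16, m12_CD+VC had the highest mean, and in 10 m12_WD+VC had the lowest. Over all 3847 tested entries these numbers were 956 and 581. Acly, which makes cytosolic acetyl-CoA, had 21.6, 67.1 and 98.3 CPM in m12_CD against 187, 113 and 119 in m12_CD+VC, and 16.9, 33.75 and 14.0 in m12_WD against 21.7, 10.3 and 18.4 in m12_WD+VC. Every m12_WD+VC library was below every m12_CD+VC library, and the 2 Western diet groups overlapped. The log2 interaction of -1.59 ± 0.74 (SE) did not pass (edgeR adjusted p = 0.153). Fasn, fatty acid synthase, had 21.6, 122 and 252 CPM in m12_CD against 294, 226 and 254 in m12_CD+VC, and 35.6, 180 and 58.1 in m12_WD against 28.95, 48.5 and 42.0 in m12_WD+VC. The first m12_CD library was about as low as m12_WD+VC, and the interaction of -2.02 ± 0.81 (SE) did not pass (edgeR adjusted p = 0.104). The Western diet difference passed in the VC groups for Acly (-3.21, edgeR adjusted p = 0.00396), Fads2 (-2.04, 0.00369) and Fasn (-2.61, 0.0304), and in air for Acly (-1.61, 0.0236) and Fads2 (-1.18, 0.0116).

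Other metabolic groups had 4 or fewer passing members each. In glucose metabolism 4 of 14 passed, all lower, beside 5.64% of all entries. All 14 values lay below 0, with a median of -1.47. Those that passed included Fbp1 of gluconeogenesis (-2.42, edgeR adjusted p = 0.0258), Ldha (-2.52) and Gpi1 (-2.60). Pck1 (-1.48, edgeR adjusted p = 0.0971) did not pass. Of 18 tested urea cycle and amino acid genes, 3 passed as lower, among them Fah (-2.06) and Hgd (-2.45), which break down tyrosine. Nags, which makes the activator of the urea cycle, passed as higher (1.62, edgeR adjusted p = 0.0321). The calls of these 6 named genes were each lost without 5 or more of the single libraries. Without an overlap, 3 of 12 glucose metabolism genes and 3 of 13 urea cycle and amino acid genes passed as lower, beside 9.09% of such entries. Scaled within classes, 1 of the 14 glucose metabolism genes and 1 of the 18 urea cycle and amino acid genes passed.

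In cholesterol synthesis 1 of 11 passed, and in bile acid and sterol handling 0 of 14 did in edgeR or limma-voom, while DESeq2 called 2 and 3 had an unadjusted p below 0.05. Cyp7a1, the rate-limiting enzyme of bile acid synthesis, had an interaction of 0.82 ± 0.78 (SE) (edgeR adjusted p = 0.498). Among lipid droplet genes 2 of 13 passed: Plin2, which coats the droplets (-2.90, edgeR adjusted p = 0.021), and Fabp1, counted above. Both were among the 9 lipid droplet genes without an overlap, beside 9.09% of such entries. Among male-biased liver genes 2 of 9 passed, Mup20 (-3.07, edgeR adjusted p = 0.0261) and C6 (-3.70, edgeR adjusted p = 0.0275), with a list median of -3.01 and none when scaled within classes. All 9 male-biased genes had no overlap. The Mup genes are near-identical copies, so their counts are uncertain.

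Stress and signalling lists stayed near or below the background share. Pdia3, a disulfide isomerase that overlaps Catsper2, was the single one of 12 unfolded protein response genes to pass (-2.68, edgeR adjusted p = 0.0275). The chaperone Hspa5 (-1.73, edgeR adjusted p = 0.118) and Atf4 (-2.18, edgeR adjusted p = 0.0856) did not. In edgeR 0 of 5 tested m6A genes, 0 of 5 clock genes, 0 of 6 DNA adduct repair and p53 genes, 0 of 3 endothelial genes, 0 of 5 stellate cell genes and 0 of 8 hormone signalling genes passed. At an unadjusted p below 0.05 there were 1, 1, 0, 0, 2 and 2. DESeq2 called 2 of the stellate cell genes and 1 of the hormone signalling genes, and limma-voom none.

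Mettl3, the m6A methyltransferase, had 138, 156.5 and 147 CPM in m12_CD against 129, 128 and 124 in m12_CD+VC, and 154, 159.7 and 169 in m12_WD against 116, 109 and 152 in m12_WD+VC, with an interaction of -0.14 ± 0.40 (SE) (edgeR adjusted p = 0.846). Every VC library lay below every air library on the same diet, so its 2 differences had the same sign. Fto, Alkbh5 and Ythdf2 had too few counts to be tested. Afp, the fetal liver protein, had 117, 119 and 147 CPM in m12_CD against 57.8, 37.6 and 119 in m12_CD+VC, and 58.1, 31.5 and 85.2 in m12_WD against 72.4, 67.6 and 70.9 in m12_WD+VC, and its interaction of 0.98 ± 0.58 (SE) did not pass (edgeR adjusted p = 0.25). The tumour marker Gpc3 had 0, 1, 0 and 0 counts, and the proliferation marker Mki67 1, 3, 5 and 4, in m12_CD, m12_CD+VC, m12_WD and m12_WD+VC, too few to be tested.

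**Figure D4:**
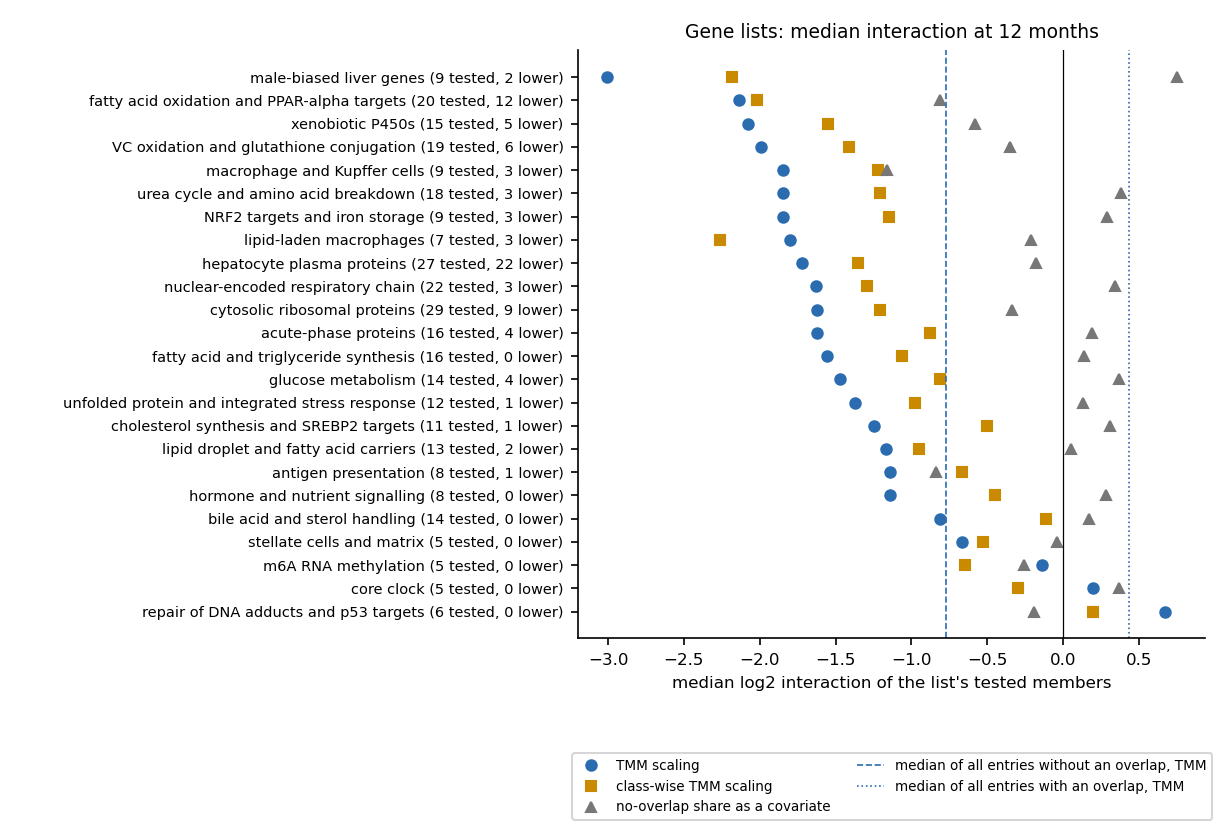
Median log2 interaction of the tested members of each list with 5 or more tested members, under 3 treatments of the libraries. Circles are TMM over all entries, squares TMM within the classes with and without an overlap, and triangles the fit with the no-overlap share as a covariate, with broken and dotted lines for the medians of all entries without and with an overlap. Squares of the metabolic lists stay below 0, and triangles lie nearer to 0 than circles for most lists.

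The 120 higher entries mostly had their low level in m12_WD. In 99 of them m12_WD had the lowest mean, and 107 passed as lower with the Western diet in air. Of all 3847 tested entries, 956 had their lowest mean in m12_WD and 455 passed as lower with the Western diet in air. The m12_WD level is part of the interaction that chose the 120, and that choice favours this shape. Kmt2d, a histone H3 lysine methyltransferase of enhancers (chr15:98831669-98871204), had 195, 174 and 236 CPM in m12_CD against 121, 180.5 and 132 in m12_CD+VC, and 16.9, 24.75 and 20.05 in m12_WD against 86.8, 76.4 and 94.6 in m12_WD+VC. The 3 m12_WD libraries were far below all others, m12_WD+VC lay between, and the control diet groups overlapped. The log2 contrast was 2.56 ± 0.46 (SE), edgeR adjusted p = 0.00827, with a VC difference of -0.51 on the control diet and 2.05 on the Western diet (for the latter, edgeR adjusted p = 0.00489).

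Zfhx2os, a transcript opposite the homeobox gene Zfhx2 (chr14:55053869-55075873), had 428, 298 and 209.7 CPM in m12_CD against 382, 331 and 372 in m12_CD+VC, and 22.5, 29.25 and 36.1 in m12_WD against 362, 154 and 247 in m12_WD+VC. All 3 m12_WD libraries stood below the other 9, which overlapped between groups. Its log2 interaction was 2.80 ± 0.49 (SE), edgeR adjusted p = 0.00827, with a VC difference of 0.23 on the control diet and 3.03 on the Western diet. The partner Zfhx2 had 2, 5, 8 and 12 counts per group and was not tested. Zfp668, a zinc finger gene overlapping Zfp646 (chr7:127863047-127876828), had 21.6, 32.3 and 52.4 CPM in m12_CD against 41.3, 22.6 and 22.1 in m12_CD+VC, and 1.87, 0 and 0 in m12_WD against 65.1, 23.5 and 28.9 in m12_WD+VC. A single count was seen in all 3 m12_WD libraries, against 34, 26 and 36 counts in m12_CD, m12_CD+VC and m12_WD+VC. The test passed (edgeR adjusted p = 0.00952), and its fitted interaction of 5.72 depends on how the near absence is treated. Zfp646 had 0.56 ± 0.79 (SE) and did not pass (edgeR adjusted p = 0.664).

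Other higher entries, none of which passed for VC on both diets, follow. Bcat2, the mitochondrial branched-chain aminotransferase (chr7:45570153-45589711), had 2232, 2231 and 2984 CPM in m12_CD against 1315, 1294 and 1426 in m12_CD+VC, and 843, 871 and 930.3 in m12_WD against 1773, 1217 and 1660 in m12_WD+VC. The VC libraries lay below those in air on the control diet and above them on the Western diet, without overlap in either pair, and the first of these differences passed (edgeR adjusted p = 0.037) but not the second (0.187). The log2 interaction was 1.69 ± 0.32 (SE), edgeR adjusted p = 0.00875, and its overlapping partner 0610005C13Rik, with -1.09 ± 0.76 (SE), did not pass (edgeR adjusted p = 0.342). Msmp, which encodes a small secreted protein (chr4:43583216-43584494), had 1570, 1309 and 1435 CPM in m12_CD against 941, 820 and 974 in m12_CD+VC, and 433, 414 and 458 in m12_WD against 962, 751 and 1027 in m12_WD+VC. Its order was the same as that of Bcat2, with 1.72 ± 0.32 (SE) and edgeR adjusted p = 0.00827. Its partner Rgp1 had -0.69 ± 0.76 (SE) and did not pass (edgeR adjusted p = 0.559).

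Spatc1l (chr10:76562272-76570201) had 735, 591 and 478 CPM in m12_CD against 250.3, 286 and 312 in m12_CD+VC, and 131, 180 and 140.3 in m12_WD against 239, 251 and 318 in m12_WD+VC. Both VC groups lay together between m12_CD and m12_WD, and the log2 interaction was 1.94 ± 0.38 (SE), edgeR adjusted p = 0.00875. Cebpa, a transcription factor of hepatocyte metabolism (chr7:35119293-35121928), had 545, 542 and 609 CPM in m12_CD against 289, 459 and 328 in m12_CD+VC, and 225, 292.5 and 195.5 in m12_WD against 376, 439 and 462 in m12_WD+VC. It followed the same order, although 1 m12_CD+VC library lay within the m12_WD range, with 1.53 ± 0.36 (SE) and edgeR adjusted p = 0.021, but it did not pass without the third m12_WD+VC library (0.0787). Tmem30b, a subunit of lipid flippases, had 2.28 (edgeR adjusted p = 0.0141) and Lrfn4, a synaptic adhesion protein, 2.59 (edgeR adjusted p = 0.0184). The first was lost without the third m12_WD+VC library (0.0517) and the second without the second m12_CD+VC library (0.0521).

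Direction was tied to the class of entry. Of 1960 tested entries with an overlap, 92 passed as higher and 50 as lower, with a median of 0.43. Of 1837 without one, 22 passed as higher and 167 as lower, with a median of -0.78. Scaling each class by itself moved these medians to -0.07 and -0.105 and gave 198 calls (5.15%), 83 higher (2.16%) and 115 lower (2.99%), with 11 higher and 70 lower among entries with an overlap and 66 higher and 45 lower among those without. Fitted alone, the 1837 entries without an overlap gave 76 higher and, at 2.4%, 44 lower, so that 63.3% of calls were higher, against 35.6% over all entries. Of the 337 calls, 134 also passed in the same direction with class-wise scaling.

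All 23 of the named entries that passed in every leave-one-out fit also passed with class-wise scaling, 17 as lower and 6 as higher. There Ehhadh had -3.32, Adh1 -3.03, Alb -2.15, Rpsa -3.07, Actb -2.20, Kmt2d 3.30, Zfhx2os 2.26 and Bcat2 1.16 on the log2 scale. With the no-overlap share as a covariate, their adjusted p in edgeR lay between 0.556 and 0.972. Alb then had -0.24, Trf -0.41, Apoa2 -0.57, Serpina1a -0.64 and Aldh1a1 -0.68, the 5 values of the 23 nearest to 0. Ehhadh had -2.67, Adh1 -1.36, Rpsa -4.07, Actb -1.59, Kmt2d 2.91, Zfhx2os 1.85 and Bcat2 1.51.

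Opposite-strand partners did not simply mirror each other. Of 535 pairs with both entries tested, 215 had interactions of opposite sign and 320 of the same sign, and 9 pairs had both entries called. Ahsg, a plasma glycoprotein of hepatocytes, had 376, 735.5 and 763 CPM in m12_CD against 1414, 2001 and 1009 in m12_CD+VC, and 2766, 1926 and 1325 in m12_WD against 1954, 1546 and 775 in m12_WD+VC, with an interaction of -1.72 ± 0.49 (SE) (edgeR adjusted p = 0.0376). Gm30505 on its other strand had means of 135100, 75780, 75950 and 97250 CPM in m12_CD, m12_CD+VC, m12_WD and m12_WD+VC, and 1.19 ± 0.38 (SE) (edgeR adjusted p = 0.0531). Pzp, a protease-binding plasma protein, and its partner Gm10069 were both called, in opposite directions. Pzp had 225, 673 and 570 CPM in m12_CD against 1216, 2332 and 1249 in m12_CD+VC, and 1229, 1908 and 419 in m12_WD against 1100, 776 and 596 in m12_WD+VC, with an interaction of -2.22 ± 0.61 (SE) (edgeR adjusted p = 0.0321). Gm10069, the entry of the 2 with more counts, had 168300, 94130 and 93010 CPM in m12_CD against 64250, 71640 and 86560 in m12_CD+VC, and 46200, 44340 and 49420 in m12_WD against 77030, 48300 and 65690 in m12_WD+VC, with an interaction of 1.12 ± 0.35 (SE) (edgeR adjusted p = 0.0478). Without single libraries the first call was lost in 6 of 12 fits and the second in 8.

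The same contrast at 12 weeks, the end of the exposure period, passed for 1 of 4764 entries (0.021%) in a fit of 23 libraries. This fit left out 1 w12_WD library with 607 counts. The interaction at 12 months minus that at 12 weeks passed for 29 entries (0.609%), 18 lower (0.378%) and 11 higher (0.231%). Of the 217 entries lower at 12 months, 15 passed for the difference between times and their median interaction at 12 weeks was 0.39. Of the 120 higher entries, 8 passed and the median was -0.07. Over all 3847 entries tested at 12 months, the median at 12 weeks was 0.05. Both sets were chosen by the 12-month interaction, which is part of the tested difference. That choice favours passing members, so these counts are not a separate test. The same holds for entries below that were named by their 12-month p. The 2 times have no library in common. Values at 12 months below come from the 12 libraries, and those at 12 weeks and the differences from the 23, so they do not subtract exactly.

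Of the 20 tested members of the fatty acid oxidation list, 5 passed for the difference between times, all lower (background 0.378%), among them Ehhadh, Acadm, Cyp4a10 and Cyp4a14. Ehhadh had an interaction of 1.504 at 12 weeks and -3.96 at 12 months, with a difference of -5.42 (edgeR adjusted p = 0.0178). The droplet protein Plin2 had 1.79 and -2.90 (difference -4.65, edgeR adjusted p = 0.0212). Named after their values were seen, Cyp4a10, a fatty acid hydroxylase under PPAR-alpha, had 3.17 and -3.34 and Acadm 1.86 and -2.65. The alcohol and aldehyde dehydrogenases Adh1 and Aldh1a1 had 0.92 and 0.65 at 12 weeks and passed for the difference (edgeR adjusted p = 0.0465 and 0.0397).

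On the higher side, 2 of the entries described above were among the 29. Zfhx2os went from -0.72 to 2.80 and Zfp668 from -0.78 to 5.72, each with an edgeR adjusted p of 0.00929 for the difference. By contrast Alb (edgeR adjusted p = 0.0555), Kmt2d (0.0728), Rpsa (0.252) and Cyp3a11 (0.139) did not pass for it. The count of 29 moved when libraries were left out, to between 4 without the first w12_WD+VC library and 111 without the third m12_WD library. It was 6 to 17 without the second library of w12_WD, w12_CD, m12_CD+VC or m12_WD, the first of m12_CD, m12_WD or m12_WD+VC, or the third of m12_WD+VC, w12_CD+VC or w12_WD+VC. It was 51 to 75 without the first library of m12_CD+VC or w12_WD, the second of m12_CD, or the third of m12_CD+VC or w12_CD.

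**Figure D5:**
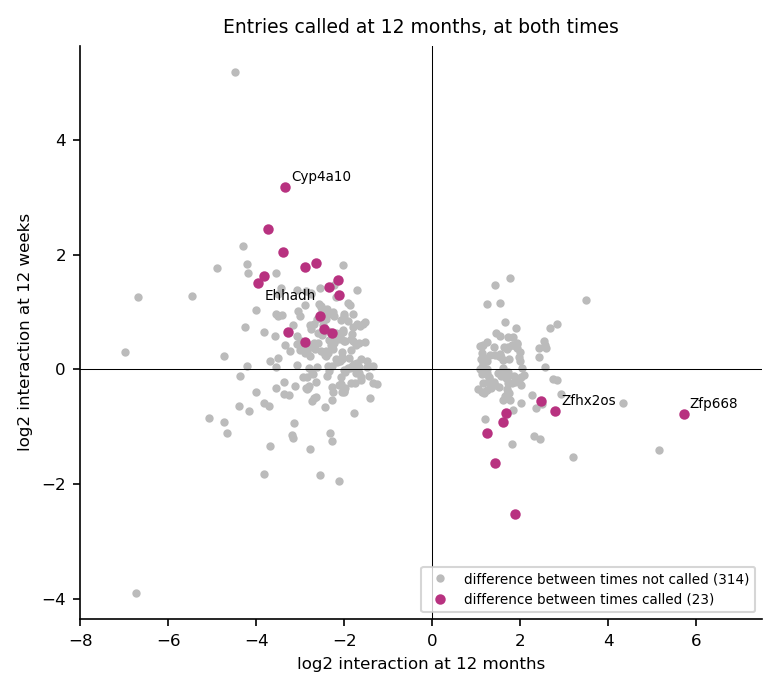
Log2 interaction at 12 months (x axis) and at 12 weeks (y axis) of the 337 entries that passed at 12 months. Coloured points are the 23 whose difference between times passed, and the x axis values are those that chose the entries. The 12-week medians are 0.39 for the lower and -0.07 for the higher entries, with Cyp4a10 at 3.17 and Zfp668 at -0.78.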

How the data were processed

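Liver RNA libraries made with a TruSeq kit were counted per gene entry, and the deposited values are raw read counts per entry, per the labels. Per the submitters' processing notes the tools were Trimmomatic 0.38, HISAT2 2.1.0 and HTSeq 0.11.2 with build mm10; neither annotation nor strand setting is given in the sources used here. Deposited per-sample log2 values were not used. The members and lists were chosen with earlier results of these data known.

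Counts were fitted in R 4.3.3 with edgeR 4.0.16 (filterByExpr, TMM, quasi-likelihood test, 12 libraries in 4 groups, no covariate); 3847 of 24421 entries passed the filter on low counts, and the biological coefficient of variation was 0.323. Alternatives used DESeq2 1.42.0 and limma 3.58.1. Entries were placed by symbol (23334) or synonym (631) on GENCODE M21 (GRCm38), and 5789 overlapped exons of a gene on the other strand (bedtools 2.31.1). Named were, per direction, the 15 called entries with the smallest p, a group mean of 10 CPM or more and no predicted or clone symbol; the 4 members with the smallest p of each list with a called member; 9 entries fixed by name, such as Alb, Cyp2e1 and Mettl3; opposite-strand partners; and the 4 most abundant called predicted entries per direction. A few named genes are not reported here. Other members named in the report were chosen after their values were seen. No 2 libraries of the same group held identical values (chi-square per degree of freedom 2.42 to 10.6). On data simulated for the 12-month interaction (3847 entries), 4.48% of 2-fold, 31.3% of 4-fold and 71.2% of 8-fold changes were recovered.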

Additional observations from a re-analysis of the deposited data

Results flagged for a closer look

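The VC minus air difference differed between the diets for 337 entries at 12 months. This was by the interaction term itself in edgeR's quasi-likelihood test (Benjamini-Hochberg adjusted p below 0.05). The interaction differed between 12 months and 12 weeks for 29. Diet, VC and the no-overlap share cannot be told apart here, and 0 entries passed at 12 months with the share as a covariate.

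On the higher side, the log2 interaction was 2.8 for Zfhx2os, 2.56 for Kmt2d, 1.72 for Msmp, 1.69 for Bcat2, 1.94 for Spatc1l, 5.72 for Zfp668 (1 count in m12_WD, so no bound), 2.28 for Tmem30b, 1.87 for Mfsd4, 2.59 for Lrfn4, 1.73 for Spsb3, 2.01 for Smek1, 1.9 for Ccdc151, 1.68 for Neurl2, 1.53 for Cebpa and 1.61 for Fam151a. On the lower side, it was -3.23 for Psap, -3.7 for Rpsa, -2.9 for Actb, -3.35 for Akr1c6, -2.52 for Atp5b, -3.74 for Entpd5, -3.96 for Ehhadh, -2.25 for Apoa2, -2.54 for Adh1, -3.38 for Cyp3a11, -3.29 for Aldh1a1, -3.07 for Serpina1a, -2.28 for Acaa1b and -3.4 for Atp5h.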

How the results depend on the processing

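The count of 337 became 198 with class-wise scaling (115 lower), 120 with entries without an overlap alone (76 higher, 44 lower), and 0 both without the 2 shallowest libraries and with the share covariate (0 higher and 0 lower in each), the last 2 being chosen after seeing the data. The 120 higher calls became 69 without the expression filter and 197 in DESeq2. Leaving out 1 library at a time gave 40 to 575 calls, 12 to 182 higher and 27 to 393 lower. The 29 calls for the difference between times became 50 with all 24 libraries and 69 without the filter, and 4 to 111 with 1 library left out. Under the covariate the log2 interaction turned positive, without passing, for Hgd (0.095), Prdx1 (0.133), Cp (0.411), Pdia3 (0.035), Mup20 (0.753), Fabp1 (0.055) and Pzp (0.633). Of 2506 values of named genes under the alternatives, 1960 kept direction and side of the threshold, 486 lost the call, 53 gained it and 7 reversed; the cause was not tested. Depth limits what could be detected, with 3 counts at up to 22.6 CPM.

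Whether replicate numbers pair the libraries stayed unsettled. Of 18 same-number pairs, 6 correlated above 0.1 (-0.205 to 0.188), and 6 of 12 libraries correlated best with their own number. The median correlation was 0.079 for same-number pairs and -0.007 for other pairs. Pairs among the second libraries all lay above 0 (0.073 to 0.185), while those among the first and among the third libraries lay on both sides of 0. With the replicate block, 503 entries passed (218 higher, 285 lower), and 61 for the difference between times.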
